A study of Saccharomyces cerevisiae with 9 samples.

Results

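The time course of Ypk1 inhibition in budding yeast, Saccharomyces cerevisiae, comprised 4 of the 9 dual-channel arrays of the study, taken at 0, 15, 30 and 60 min after addition of the inhibitor. The arrays were chosen by their labelled kinase and time, not by a measured value. In every strain both chromosomal genes, YPK1 and YPK2, were deleted, and a plasmid supplied the kinase. On the Ypk1 arrays the Cy3 channel held polyA RNA of cells with WT Ypk1 and the Cy5 channel RNA of cells with AS Ypk1, an analog-sensitive form engineered to bind a bulky ATP analog that the wild-type kinase excludes. Both strains grew in SCD-Leu and received 2,3-DMB-PP1 at 0.5 µM for the same time, so that each array compares inhibited with uninhibited Ypk1 under the same drug. A parallel course with AS and WT Ypk2 and 3-MB-PP1 at 1 µM (4 arrays), and 1 array of WT Ypk2 over WT Ypk1 cells without inhibitor, serve below only for comparison. There was 1 array per condition and AS cells were always in Cy5, so that a dye effect and a strain effect cannot be told apart.

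Ypk1 and Ypk2 are related AGC kinases that TORC2, a kinase complex at the plasma membrane, activates when the membrane is stressed. They are best known for raising sphingolipid synthesis through the Orm proteins and for restraining the flippase kinases Fpk1 and Fpk2, and cells lacking both kinases are inviable. A time course after acute inhibition separates transcripts that move at once and stay moved from those that follow later or return.

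The value given for a gene is its log2 ratio of AS over WT minus the median of the array, so that 1 is a 2-fold higher and −1 a 2-fold lower level in AS cells than for the median feature. Before this centring, the array medians were 0.23, −0.52, −0.19 and −0.14 at 0, 15, 30 and 60 min. A total of 6220 features had a value on all 8 arrays of both courses. In the Ypk1 course 370 of them were 2-fold apart at 0 min, before the inhibitor could act. At 15 min 747 features were 2-fold higher (12%) and 803 lower (12.9%), at 30 min 609 higher (9.79%) and 571 lower (9.18%), and at 60 min 756 higher (12.2%) and 566 lower (9.1%). The 15 min array was the widest, with a median size of the ratio of 0.58, against 0.46 at 30 min and 0.52 at 60 min. Across genes, the 30 min array correlated more closely with the 30 min array of the Ypk2 series (r = 0.67) than with its own neighbours at 15 min (0.46) and 60 min (0.60), all over the same 6220 features. As a check of the labels, on the array of the WT strains YPK2 stood at 5.49 and YPK1 at −4.33. In the Ypk1 course the plasmid-borne YPK1 stood at 0.73, 0.82, 2.44 and 1.54, highest at 30 min, and YPK2, which both strains lack, at 0.25, 1.42, 0.52 and 0.94.

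Genes were sorted by their course, after setting aside those that were 2-fold apart at 0 min. A gene was called early and lasting when it was past 2-fold in one direction at 15, 30 and 60 min. It was called late when past 2-fold at 60 min and under 0.5 in that direction at 15 min, and transient when past 2-fold at 15 min and under 0.5 at 60 min. Early and lasting courses comprised 155 genes higher (2.49% of features) and 150 lower (2.41%). Late courses comprised 235 higher (3.78%) and 169 lower (2.72%), and transient courses 183 higher (2.94%) and 280 lower (4.5%). The balance of the transient courses turned under other settings, with 74 higher and 59 lower for arrays of one spread, 110 and 68 after quantile normalization, 134 and 70 at a threshold of 1.5, and 66 and 770 without centring. Late courses numbered 198 higher and 221 lower with the 0 min value subtracted. A further 68 genes were higher and 84 lower at 30 min alone, 528 and 564 took courses in between, 39 crossed both thresholds and 3395 crossed none. These classes are descriptions of single arrays and carry no test on the values that made them. Their sizes depend on the spread of the arrays: when all arrays were brought to one spread, early and lasting genes numbered 126 in place of 305, late genes 232 in place of 404 and transient genes 133 in place of 463.

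**Figure D1:**
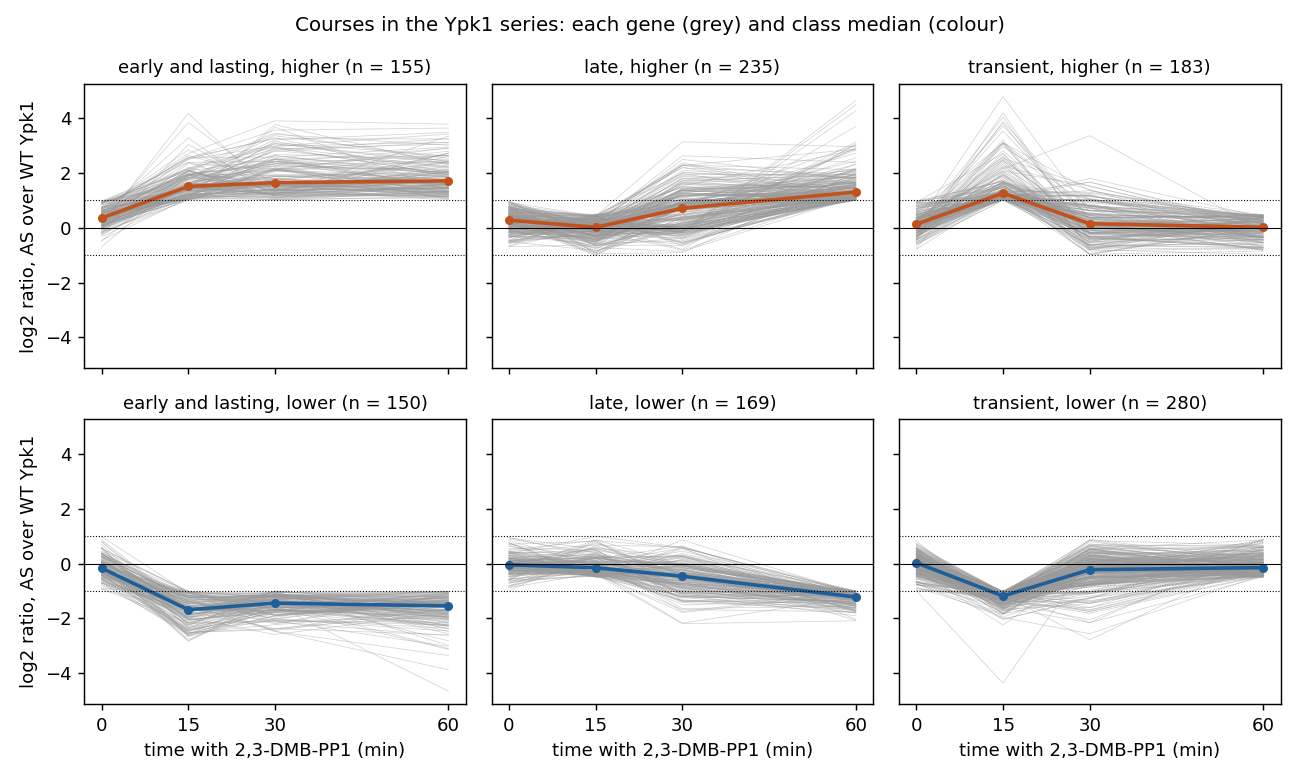
Log2 ratio of AS over WT Ypk1, relative to the array median, against time with 2,3-DMB-PP1 in minutes, for every gene of the 6 courses (grey lines) with the class median (coloured line) and the 2-fold thresholds (dotted lines). Early and lasting genes had reached a median of 1.51 (higher) or −1.68 (lower) by 15 min and stood at 1.71 or −1.55 at 60 min, while the late medians passed the threshold only at 60 min and the transient medians only at 15 min. The class definitions bound the values at 15 and 60 min.

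Early and lasting higher transcripts were already near their final level at 15 min. The class median was 0.36 at 0 min, 1.51 at 15 min, 1.64 at 30 min and 1.71 at 60 min, and the largest value of a gene fell at 15 min for 30 genes, at 30 min for 69 and at 60 min for 56. At the head of the class, YPT53, a Rab5-type GTPase of the endosomal and vacuolar route, stood at 0.63, 2.70, 3.90 and 3.78. RCN2, a regulator of the phosphatase calcineurin, stood at 0.60, 2.16, 3.46 and 2.40, and YPS1, a surface aspartic protease of the yapsin family that processes cell wall proteins, at 0.44, 2.50, 2.98 and 3.11. The course of RCN2 crested at 30 min, whereas YPS1 was highest at 60 min. QDR2, a drug exporter of the plasma membrane, was at −0.03 before the inhibitor and at 2.34, 2.14 and 2.79 after it, and OSW2, a gene of the outer spore wall, at 0.76 and then 2.53, 3.56 and 3.63. SRY1, which degrades 3-hydroxyaspartate, stood at 0.98, 2.15, 3.06 and 2.43. For each of these genes the lowest later value lay above the value at 0 min by more than 1. The remaining leaders were MLO127 (0.70, 2.57, 2.57 and 2.94) and DIA1 (0.43, 2.08, 2.95 and 2.21).

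Many of the early and lasting higher genes leaned the same way without inhibition. Of the 155, 134 had a ratio above 0 at 0 min, where centring puts the median of all features. On the WT array, whose Cy5 channel holds WT Ypk2 cells, their median was 0.41 and 31 of them (20%) were 2-fold higher, against 2.75% of all features. YPT53 stood there at 1.32, MLO127 at 1.45 and YPS1 at 1.03, but QDR2 at 0.12 and DIA1 at 0.05. The part of dye or channel in these courses was not tested.

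Early and lasting lower transcripts, low from 15 min by definition, had factors of ribosome assembly at their head. The class median was −0.17 at 0 min and −1.68, −1.44 and −1.55 at the later times, and 69 of the 150 genes were lowest at 15 min. NSA2, a factor of large subunit assembly, stood at −0.67, −2.61, −2.02 and −2.46, and YTM1, which acts in the same pathway, at −0.93, −2.16, −2.12 and −2.64. UTP10, a component of the small subunit processome, stood at 0.23 before the inhibitor and at −2.20, −2.08 and −1.99 after it. RPA43, a subunit of RNA polymerase I, stood at −0.13, −2.44, −1.79 and −2.29. Each of these genes was lower at all 3 later times than at 0 min. Outside ribosome assembly, MEP2, the high-affinity ammonium permease, stood at −0.54, −2.42, −2.09 and −3.02. SER33, an enzyme of serine synthesis, stood at −0.43, −1.99, −2.59 and −1.77, and TRL1, the tRNA ligase, at 0.35, −1.75, −2.37 and −1.85. TDA6 (−0.26, −2.06, −1.72 and −2.18) completes the leaders. At 0 min 90 of the 150 genes were below 0, where centring puts the median of all features. On the WT array their median was −0.28, with 7 genes (4.67%) 2-fold lower, against 2.3% of all features. Of the leaders, MEP2 was also low on the WT array, at −1.96.

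Within this class, a few genes were lower at each successive time. TOD6, a repressor of ribosome biogenesis genes, stood at 0.04, −1.25, −1.51 and −4.66. YPP1, which recruits the phosphatidylinositol 4-kinase Stt4 to the plasma membrane, stood at −0.21, −1.50, −2.47 and −3.87. PHO5, the repressible acid phosphatase, stood at 0.27, −1.27, −2.47 and −3.35, and FET3, the multicopper oxidase of iron uptake, at 0.99, −1.08, −1.49 and −3.10. In the Ypk2 course TOD6 lay between −0.40 and −0.15 throughout, whereas YPP1 stood at −0.90, −2.26, −2.77 and −3.07 and FET3 at −0.54, −1.27, −1.63 and −1.97.

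Late courses mixed genes that had crossed 2-fold by 30 min with a larger number seen at 60 min alone. Of 235 late higher genes, 70 were past 2-fold at 30 min and 165 were not; of 169 late lower genes, 33 were and 136 were not. The steepest belonged to the second kind. DTR1, a dityrosine transporter of spore wall synthesis, stood at −0.34, 0.27, −0.16 and 4.64, and RNH1, a ribonuclease H, at −0.59, 0.38, −0.15 and 4.48. WSC4, of the Wsc family of membrane proteins, stood at 0.39, 0.12, −0.17 and 4.26. Each was within 2-fold through 30 min and past 4 on the log2 scale at 60 min, on 1 array. CBF1, a DNA-binding protein of centromeres and methionine gene promoters, stood at 0.22, 0.10, 0.02 and 3.69, SPP41 at −0.27, 0.07, −0.79 and 3.07, and KAR4, a transcription factor of mating, at −0.12, −0.41, 0.41 and 2.83. Among late genes past 2-fold at 30 min, the neighbours SNZ1 and SNO1, which act in vitamin B6 synthesis, stood at 0.83, 0.42, 3.13 and 2.96, and at 0.51, 0.24, 2.27 and 2.86. CLB2, the main mitotic cyclin, was low from 30 min, at −0.04, −0.39, −2.19 and −2.09. Other late lower genes were smaller in size. GUA1, the GMP synthetase, stood at 0.89, 0.38, −1.16 and −1.90 and VSB1, a vacuolar membrane protein, at 0.38, 0.49, −0.06 and −1.68. GPN3 ended at −1.27, CST6, a bZIP transcription factor, at −1.13, CBS2, a mitochondrial translation activator, at −1.14 and TRK2, a potassium transporter, at −1.01.

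Transient courses were mostly spikes of the 15 min array. By 30 min, 160 of the 183 transient higher genes and 246 of the 280 transient lower genes were back within 2-fold. KAP122, a nuclear import receptor, stood at 0.11, 4.78, 0.57 and −0.43, and SAS5, of a histone acetyltransferase complex, at −0.40, 4.18, −0.48 and 0.08. PEX22, a peroxisomal membrane protein, stood at −0.39, 3.88, 0.35 and −0.15. ARO80, the activator of aromatic amino acid breakdown, was at 3.11 at 15 min and 0.74 at 30 min, the slowest return of the 6 leaders. SKS1, a protein kinase, reached 3.20 and IRC22 3.05, and both were below 0 at 30 and 60 min. Downwards, PSK1, a PAS-domain kinase, stood at −0.99, −4.36, 0.19 and −0.45, and its paralog PSK2 at 0.39, −1.45, −1.03 and 0.87. UTP5 of the small subunit processome (−0.05, −2.03, −1.29 and 0.62) and TIF5, translation initiation factor eIF5 (0.19, −1.72, −1.27 and 0.87), were still past 2-fold at 30 min and above the median at 60 min. NTG2, a DNA repair glycosylase, and CTF13, a kinetochore protein, were at −1.36 and −1.55 at 15 min and at 0.78 and 0.59 at 60 min. PEX22 and PSK1 lie on the left arm of chromosome I, whose features were 2-fold apart on several arrays without relation to time (Other observations).

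Some genes stood out at 30 min alone. SET2, the histone H3 lysine methyltransferase of transcribed genes, stood at −0.48, 0.36, 2.87 and 0.27, MNT2, a mannosyltransferase, at 0.29, 0.02, 2.30 and 0.17, and RCR1, a protein that lowers chitin deposition, at 0.71, −0.56, 2.14 and 0.50. Each was within 2-fold on the other 3 arrays. SEO1, a permease on the left arm of chromosome I (0.06, 0.10, −2.50 and 0.38), MSH4 of meiotic recombination (−0.83, 0.12, −2.27 and 0.23) and LSM4 of mRNA decay (−0.17, −0.19, −2.22 and −0.47) were the lowest.

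**Figure D2:**
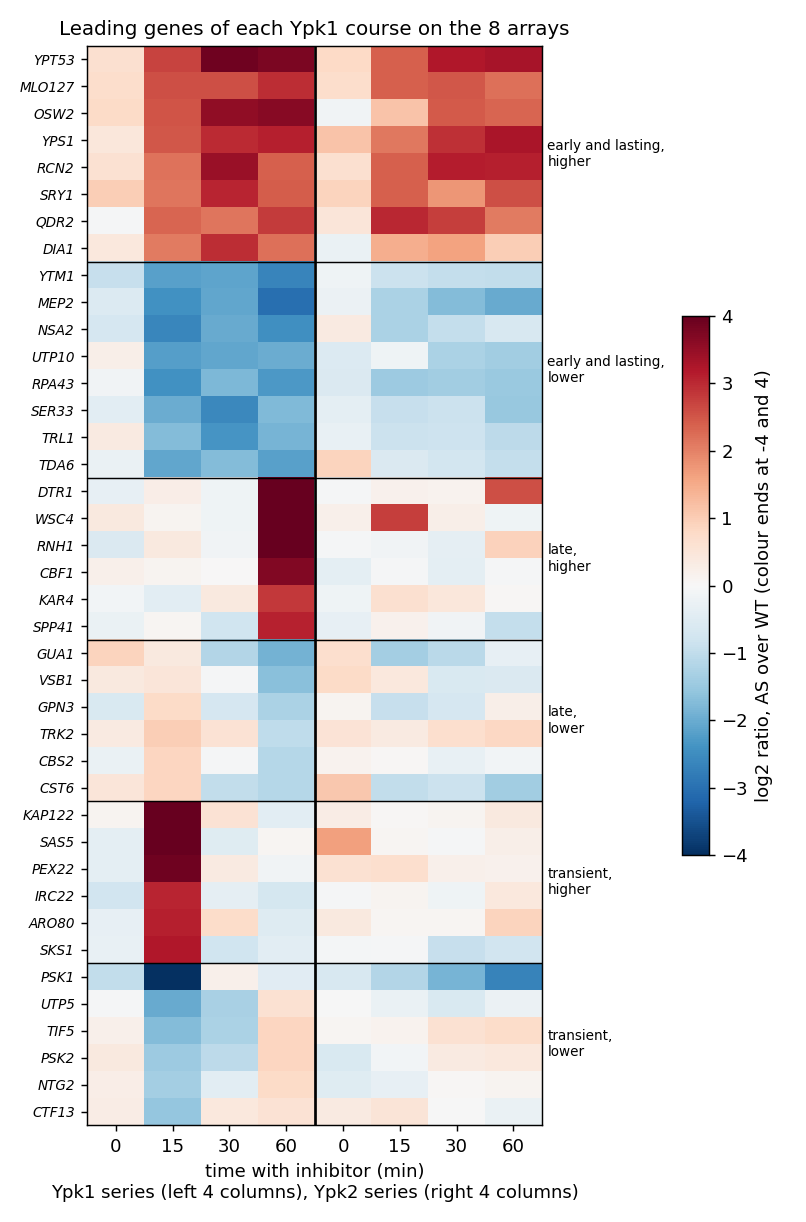
Log2 ratios (colour, ending at −4 and 4) of the leading genes of each Ypk1 course (rows) at 0, 15, 30 and 60 min in the Ypk1 series (left columns) and the Ypk2 series (right columns). Early and lasting leaders keep their direction at the later times of both series. The lower ones are paler in the Ypk2 series, where UTP10 is at −0.17 at 15 min and TDA6 stays within 2-fold. The late and transient leaders stand out on 1 or 2 Ypk1 arrays. Of the late and transient higher ones only DTR1 at 60 min and WSC4 at 15 min are past 2-fold at a later time of the Ypk2 series.

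Boundary cases show how thin the thresholds are. GRX1 was counted as early and lasting with 1.00 at 15 min, while RRT14 was left out with 0.9992 at 30 min between 1.06 at 15 min and 1.09 at 60 min. FCF1 was left out of the lower class with −0.9953 at 60 min after −2.12 and −1.59, and DUS1 was kept with a 30 min value at the threshold. On the late side RPF1 entered with 1.00 at 60 min, and NOT3 stayed out with 0.9936.

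Whether the ratio still moved after 15 min was tested with limma as a line over 15, 30 and 60 min, fitted on all 6220 features with the Ypk2 arrays sharing the estimate of spread. No gene passed (0 of 6220, 0%); the smallest adjusted p was 0.485, and 621 genes (9.98%) had an unadjusted p under 0.05. The genes with the smallest p were TFB3, a subunit of the factor TFIIH, with a fitted change of 3.45 ± 0.43 (SE) from 15 to 60 min, and RRT12, with a fitted change of −4.20 ± 0.52 (limma adjusted p = 0.485 for both). Their values were −0.36, −1.26, −0.32 and 2.15, and −0.04, 1.01, −1.06 and −3.32. Without the 30 min array, which leaves a difference between 2 arrays, 43 genes passed, and without the 60 min array 11. A line over all 4 times was passed by 1 gene (0.0161%), TOD6, with a fitted change of −4.57 ± 0.57 (SE) over 60 min (limma adjusted p = 0.0457), while 579 genes had an unadjusted p under 0.05. That call was lost under 4 alternatives (uncentred ratios, arrays scaled to one spread, quantile normalization, another time scale), and the count was 7 without the 30 min array and 0 without the 15 or the 60 min array.

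The Ypk2 course shares no RNA sample with the Ypk1 course and was not used to form the classes, although it shares the features and the dye orientation, and its inhibitor and dose differ. It was therefore used to ask which courses recurred. In limma's test of the mean ratio at 15, 30 and 60 min against 0, 434 features (6.98%) passed as higher and 294 (4.73%) as lower in the Ypk2 series. Of the 155 early and lasting higher genes, 115 (74.2%) passed there as higher, and of the 150 lower genes, 89 (59.3%) passed as lower. Of the late genes, 26 of 235 higher (11.1%) and 10 of 169 lower (5.92%) passed, and of the transient genes, whose shares lay below those of all features, 9 of 183 higher (4.92%) and 9 of 280 lower (3.21%). No gene of these 6 classes passed in the opposite direction. The fit pooled each gene's spread over both series, so a late or transient Ypk1 course widened the error of its Ypk2 test. For KAP122 the SE was 0.79 in both series, although its SD over the later Ypk2 times was 0.19. Selection thus made late and transient genes less likely to pass. An even Ypk1 course could instead narrow the error of an early and lasting gene. For UTP10 the SE was 0.26 in both series, with an SD over the later times of 0.11 in the Ypk1 and 0.67 in the Ypk2 series. These shares therefore cannot be compared as recurrence. A transient course would also lower a mean over the later times, so the same times were set side by side. At 15 min, 16 transient higher genes (8.74%) were 2-fold higher in the Ypk2 series, where 9.42% of all features were, and 7 transient lower genes (2.5%) were 2-fold lower, where 3.63% were. On the Ypk2 0 min array, 24 transient higher genes (13.1%) were 2-fold higher, where 292 of 6220 features were. The early and lasting higher genes had 20 there (12.9%). Of the transient lower genes 1 (0.357%) was 2-fold lower there, where 6 features were. Across genes the Ypk1 15 min array correlated with that array at 0.36, with its own 0 min array at 0.19 and with the Ypk2 15 min array at 0.44. At 60 min, 62 late higher genes (26.4%) were 2-fold higher against 10.1% of features, and 12 late lower genes (7.1%) were 2-fold lower against 6.62%. For early and lasting genes the shares were 56.8%, 69.7% and 73.5% higher at 15, 30 and 60 min, and 39.3%, 45.3% and 44.7% lower. At 30 min the background was 7.81% higher and 4.2% lower.

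**Figure D3:**
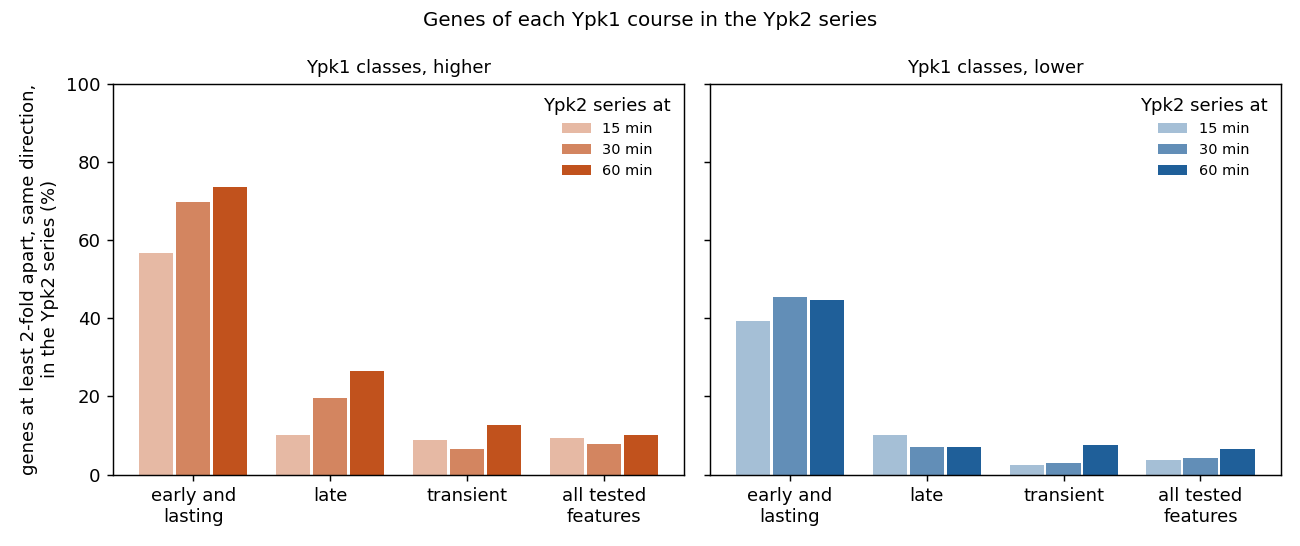
Share of the genes of each Ypk1 course (in percent) that were at least 2-fold apart in the same direction in the Ypk2 series at 15, 30 and 60 min, beside the share of all 6220 tested features. Early and lasting genes stand at 56.8% to 73.5% (higher) and 39.3% to 45.3% (lower), and the transient genes lie close to all features at each time.

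Late higher genes were split by whether they were already past 2-fold at 30 min. Of the 70 past 2-fold at 30 min, 41 (58.6%) were 2-fold higher in the Ypk2 series at 60 min, against 21 (12.7%) of the 165 that were not. Of the late lower genes the same split gave 6 of 33 (18.2%) and 6 of 136 (4.41%) 2-fold lower. SNO1 passed in the Ypk2 series, with a mean ratio of 2.03 ± 0.45 (SE; limma adjusted p = 0.0242), and so did CLB2 among the late lower genes, with −1.39 ± 0.35 (adjusted p = 0.0372). None of the 6 leading late higher genes passed, with adjusted p from 0.508 for DTR1 to 0.93 for RNH1, under an error widened by their Ypk1 course. Of them DTR1 was 2-fold higher at 60 min there, at 2.58, and WSC4 at 15 min, at 2.77. Of the transient higher leaders, none was 2-fold higher in the Ypk2 series at 15 min, where their values ran from −0.05 for SKS1 to 0.68 for PEX22. Among the transient lower leaders PSK1 alone was 2-fold lower there at 15 min, at −1.17, followed by −1.86 and −2.66. Among the late lower leaders CST6 alone was 2-fold lower there at 60 min, at −1.39. GUA1 was 2-fold lower there earlier, at −1.365 at 15 min and −1.06 at 30 min.

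All 16 leading early and lasting genes passed in the Ypk2 series, under an error shared with the Ypk1 course for which they were chosen. Their mean later ratios there ran from 1.34 ± 0.24 (SE) for DIA1 (limma adjusted p = 0.011) to 2.97 ± 0.29 for YPT53 (adjusted p = 0.00191), and from −0.76 ± 0.20 for TDA6 (adjusted p = 0.0415) to −1.67 ± 0.25 for MEP2 (adjusted p = 0.00637). YPT53 followed nearly the same course in both, at 0.80, 2.38, 3.22 and 3.30 in the Ypk2 series. The lower genes of ribosome assembly were less far down there, YTM1 at −0.16, −0.87, −0.95 and −0.99 and NSA2 at 0.36, −1.28, −0.94 and −0.64. The same early and lasting class was met in the Ypk2 series by 57 of the 155 higher genes, where 2.3% of all features met it, and by 31 of the 150 lower genes, where 0.884% did. A test of the difference between the series passed for no gene (0%; limma smallest adjusted p = 0.269, with 602 genes at an unadjusted p under 0.05).

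Pathway groups were followed with 29 lists, of which the text gives counts from limma's test of the mean ratio at 15, 30 and 60 min in the Ypk1 series. That test was passed by 681 features as higher in AS cells (10.9%) and by 654 as lower (10.5%). It treats the 3 later times as repeats, so that its p measures the spread between times and not between cultures. Without the 60 min array it was passed by 725 features. With the 0 min value subtracted it was passed by 3, and 0 of these were among the 1335 features of the main fit. Thus no feature that passed the main test was called as a change from 0 min. YPK2, which both strains lack, passed the test as higher (mean later ratio 0.96 ± 0.22 SE, limma adjusted p = 0.0173). A pass is therefore not always a response of the named gene, and what the YPK2 ratio measures was not tested. List medians are set against all tested features, whose median is 0 at each time by centring.

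Genes of ribosome production were low by 15 min and stayed low. Of 95 ribosome biogenesis genes, which make and assemble ribosomal subunits, 60 passed as lower, 2 as higher and 33 did not pass. Their median was −0.13 at 0 min and −1.22, −1.10 and −1.05 at 15, 30 and 60 min. The ratio was lower at 15 than at 0 min for 76 of the 95 (80%), against 49.4% of all features, and lower at 60 than at 15 min for 45 (47.4%, against 46.4%). The early and lasting class took 33 of them and the late lower class 5. RRP1, of large subunit assembly, stood at 0.02, −2.58, −1.62 and −2.27 (mean later ratio −2.16 ± 0.49, SD over 3 times). NOP4, also of the large subunit, stood at −0.22, −2.52, −2.40 and −1.51. RLP7 had the lowest 15 min value of the list and partly returned, at 0.36, −2.73, −1.06 and −0.81. In the Ypk2 series 78 of 95 genes were lower at 15 than at 0 min, by a median change of −0.41 against −0.96 in the Ypk1 series, a difference that was not tested. The Ypk2 list had medians of −0.16, −0.68, −0.92 and −0.82, and 34 of its genes passed there as lower and 0 as higher. Subunits of RNA polymerase I and III, which transcribe ribosomal and transfer RNA, ran alongside, with medians of −0.11, −0.98, −0.61 and −0.72 over 23 genes, 12 lower and 2 higher. RPA190, the largest subunit of RNA polymerase I, stood at −0.40, −1.71, −1.56 and −1.81, and RPC19, shared by both enzymes, at −0.16, −2.14, −1.52 and −1.69. These values of RPA190 spread over 0.25 after the inhibitor.

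Relative to the array median, ribosomal protein genes took a later and different step. Their median over 137 cytosolic genes was 0.68 at 0 min and 0.73 at 15 min, then −0.06 at 30 min and −0.12 at 60 min. The ratio was lower at 30 than at 15 min for 114 of the 137 (83.2%), against 47.2% of all features, whereas 56 (40.9%) were lower at 15 than at 0 min. At 15 min 53 genes were 2-fold higher, at 30 min 3 and at 60 min 5. In the Ypk2 series the median started at the same height, 0.65, and was at −0.05 by 15 min, −0.35 at 30 min and −0.50 at 60 min, with 117 of 137 genes (85.4%, against 51.4% of all features) lower at 15 than at 0 min. Relative to the array median, the step lay between 15 and 30 min in the Ypk1 series and before 15 min in the Ypk2 series. The timing depends on the centring, as the Ypk1 array median itself moved from 0.23 at 0 min to −0.52 at 15 min. Without centring the Ypk1 list median was already down at 15 min, at 0.21, where all features stood at −0.52. The difference in timing was seen on 1 array per time and was not tested. Single genes differed from the group. RPL14A was low from 15 min, at −0.75, −2.53, −2.23 and −1.70, and RPS30B, at −0.92, −1.08, −1.62 and −3.13, was lowest at 60 min. From the course classes 53 of these genes were set aside as 2-fold apart at 0 min, and many have a near-identical paralog that a probe may not tell apart. The mean later ratio passed for 12 as higher and 11 as lower, and 114 did not pass. The 67 mitochondrial ribosomal protein genes had medians of −0.14, −0.17, 0.01 and −0.36, 1 gene higher and 5 lower. Of these, 26 were lower at 30 than at 15 min and 50 (74.6%, against 50.4% of all features) lower at 60 than at 30 min. Of 35 translation factor genes, 2 were higher and 4 lower, and TIF4631, the scaffold factor eIF4G, stood at 0.04, 1.21, 1.87 and 2.01.

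The core histone median was below 0 at the last time only. It was 0.86 at 0 min, 0.26 at 15 min, 0.15 at 30 min and −0.67 at 60 min, and all 8 genes were lower at 60 than at 30 min. From 0 to 15 min 6 of 8 genes (75%, against 49.4% of all features) were already lower. The median change was −0.71 over that step and −0.47 from 30 to 60 min. The late lower class, defined by the level and not by the change from 0 min, took HHT2, HHT1 and HHF1. HHT2, for histone H3, stood at 0.95, 0.26, 0.27 and −1.57, HHT1 at 0.76, −0.50, 0.04 and −1.28, and HHF1, for histone H4, at 0.75, −0.36, 0.37 and −1.04. The mean later ratio passed for HTA1 alone, as higher (1.03, 1.48, 0.89 and 0.45; limma adjusted p = 0.0241). In the Ypk2 series the median did not go below 0, at 0.80, 0.46, 0.06 and 0.44, and 6 of 8 genes were higher at 60 than at 30 min.

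**Figure D4:**
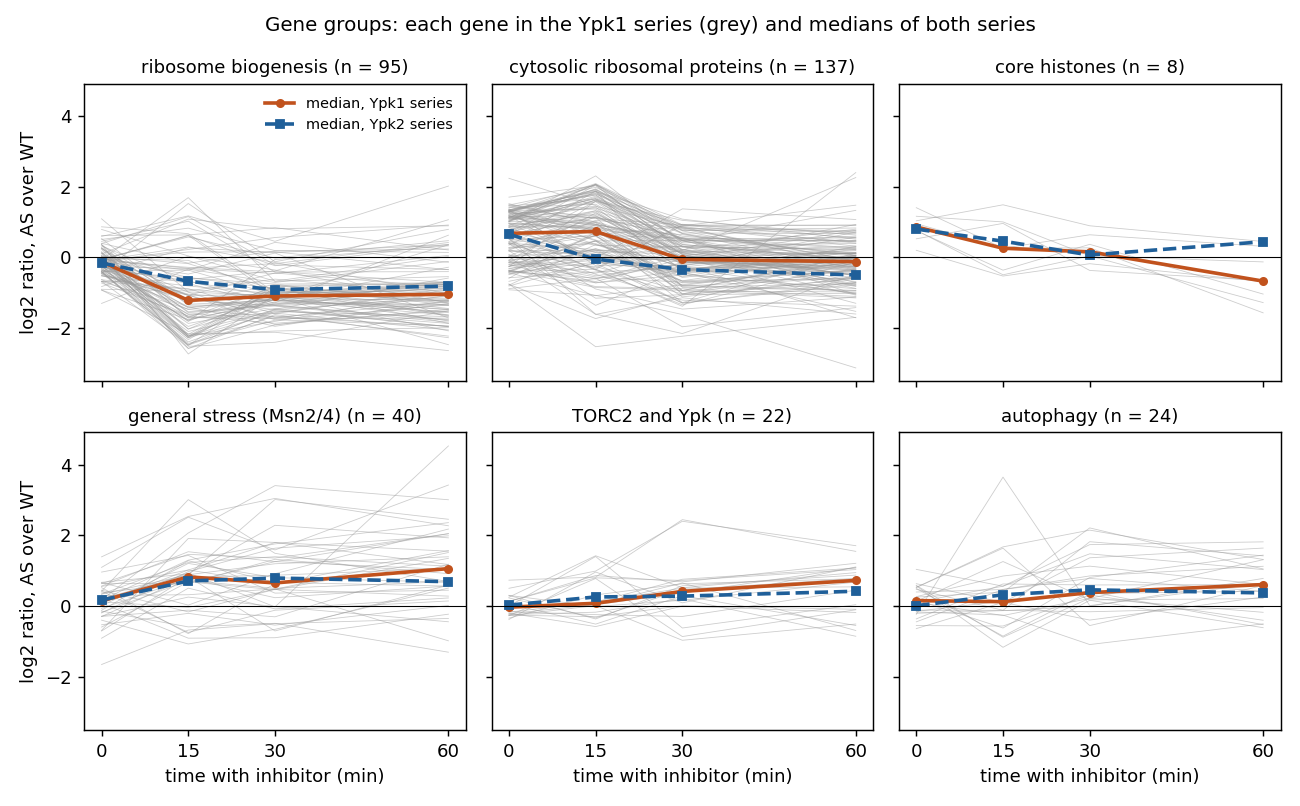
Log2 ratio of AS over WT, relative to the array median, against time with inhibitor in minutes for 6 gene groups. Grey lines are single genes of the Ypk1 series, the solid line is their median and the dashed line the median of the same genes in the Ypk2 series; the ribosome biogenesis median is low by 15 min in both, the ribosomal protein median comes down between 15 and 30 min in the Ypk1 series but before 15 min in the Ypk2 series, and the Ypk1 core histone median goes below 0 at 60 min.

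Stress genes were high from 15 min. Of 40 genes of the general stress response, driven by Msn2 and Msn4, 20 passed as higher and 1 as lower, with medians of 0.15, 0.82, 0.65 and 1.06. At 15, 30 and 60 min 14, 16 and 22 of them were 2-fold higher. PRB1, a vacuolar protease, stood at 0.17, 2.06, 3.40 and 3.00 (mean later ratio 2.82 ± 0.69, SD over 3 times). Others came later or left sooner: TFS1, an inhibitor of a vacuolar carboxypeptidase, stood at 0.20, 0.89, 3.01 and 2.45, and PGM2, a phosphoglucomutase, at 0.42, 3.01, 1.49 and 0.69. GSY1, a glycogen synthase, was at 4.53 at 60 min after 0.93 and −0.02, and did not pass (adjusted p = 0.152). Of 20 osmotic stress genes 11 passed as higher and 2 as lower (medians 0.00, 0.95, 0.83 and 1.14), with GPD1, which makes glycerol 3-phosphate, at −0.49, 2.08, 1.34 and 1.46. ENA1, the sodium pump, stood at −0.03, 1.52, 1.44 and 1.73. Heat shock and chaperone genes were mixed, with 7 of 25 higher and 3 lower, and glycolytic genes had 7 of 22 higher and 1 lower. TPI1, triose phosphate isomerase, stood at 0.48, 2.06, 1.33 and 1.92.

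Genes of the calcineurin pathway and the cell wall gave some of the highest single values. Calcineurin is a calcium-activated phosphatase that acts on the transcription factor Crz1. Of 16 listed genes 7 (43.8%) passed as higher, against 10.9% of all features, and 1 as lower. The early and lasting higher class held 4 of the 16. The list medians were 0.08, 0.52, 0.55 and −0.20, so the list median was high at 15 and 30 min and not at 60 min. RCN1, a feedback inhibitor of calcineurin, stood at 0.06, 2.07, 2.50 and 1.94, and CMK2, a calmodulin-dependent kinase, at 1.11, 2.21, 2.64 and 1.67. Both were highest at 30 min. Among 28 genes of the cell wall integrity pathway, which signals from surface sensors through Rho1 to the MAP kinase Slt2, 4 passed as higher and 1 as lower, with medians of 0.07, 0.29, 0.36 and 0.22. RHO1 was level after the inhibitor, at 0.36, 1.43, 1.57 and 1.60. SLT2 was below the median before it, at −1.23, and at 1.55, 0.65 and 1.36 after it. NCW2, a cell wall protein, stood at 1.13, 2.23, 4.57 and 3.43. Of the 6 yapsins, YPS1 and YPS3 (0.66, 1.97, 2.25 and 2.11) passed as higher, YPS6 passed as lower at −0.09, −0.63, −0.55 and −0.96, and 3 did not pass.

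The median of the pathway's own genes was highest at 60 min. The list of TORC2, Ypk and their partners held 22 genes, of which YPK1 was on the plasmid and YPK2 deleted in both strains, so that their ratios are no response of a chromosomal gene. Of the other 20 genes 3 passed as higher (AVO2, CDC55 and ORM2), 0 as lower and 17 did not pass. Their medians were −0.10, 0.04, 0.33 and 0.61, and 1, 1 and 6 of them were 2-fold higher at 15, 30 and 60 min. With YPK1 and YPK2, as plotted, the medians were −0.03, 0.08, 0.41 and 0.72. ORM2, one of the inhibitors of sphingolipid synthesis that Ypk1 phosphorylates, stood at 0.50, 0.99, 2.40 and 1.71 (adjusted p = 0.00466), while its paralog ORM1 stood at −0.0025, 1.40, −0.62 and 0.04 (adjusted p = 0.609). ORM2 was thus highest at 30 min, and ORM1 was 2-fold higher at 15 min alone. CDC55, a regulatory subunit of protein phosphatase 2A, stood at 0.13, 0.86, 0.68 and 1.21. Sphingolipid synthesis genes numbered 6 higher and 1 lower of 29, with medians of 0.04, 0.08, 0.23 and 0.34. IPT1, which makes the most complex sphingolipid, and CSG2, of mannosylation one step before, were late, at 0.45, 0.43, 1.46 and 1.67, and at 0.72, 0.13, 1.22 and 1.25. ELO1, a fatty acid elongase, was early and lasting at 0.27, 1.19, 1.42 and 1.73, and LAC1, a ceramide synthase subunit, was lower at −0.86, −1.68, −0.86 and −1.77. Of 26 ergosterol genes 3 were higher and 1 lower.

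The autophagy list also had its highest median at 60 min. Its medians over 24 genes were 0.15, 0.12, 0.38 and 0.61, 6 passed as higher and 0 as lower, and the late higher class held 6 of them. ATG19, a receptor for cargo delivered to the vacuole, stood at 0.25, 0.39, 2.21 and 1.05, and ATG18, a phosphoinositide-binding protein, at 0.63, 0.10, 1.36 and 1.64. ATG34 stood at 0.47, −0.12, 1.82 and 1.42. ATG5, of the conjugation machinery, differed by being high from 15 min, at 0.53, 1.67, 2.15 and 1.32. The unfolded protein response list had its highest median at 30 min (−0.06, 0.17, 0.62 and 0.29), with 4 of 20 genes higher and 1 lower. HAC1, its transcription factor, stood at 0.52, 1.05, 2.19 and 1.29, PDI1, a disulfide isomerase, at 0.61, 1.54, 1.87 and 2.07, and KAR2, the chaperone of the endoplasmic reticulum, at −0.52, 0.70, 0.70 and 1.90. Without centring, the medians of the pathway (22 genes), autophagy and core histone lists at 15 min turned negative, at −0.44, −0.40 and −0.26, where the median of all features was −0.52.

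In the phosphate, nitrogen and sulfur lists more genes passed as lower than as higher. Of 25 phosphate genes 8 passed as lower and 1 as higher. PHO84, the phosphate transporter, stood at −1.26, −2.64, −3.13 and −2.81, and the acid phosphatase PHO11 at 0.16, −2.16, −1.23 and −2.82, whereas PHO11, which has a near-identical paralog in PHO12, lay between −0.61 and 0.23 in the Ypk2 series. Of 29 genes under nitrogen catabolite repression 8 were lower and 1 higher. DAL80, a GATA repressor, stood at 0.21, −1.59, −1.74 and −1.05 and did not pass in the Ypk2 series (−0.07 ± 0.21, SE; limma adjusted p = 0.875). The test of the difference between the series did not pass for these genes either. Of 30 methionine and sulfur genes 7 were lower and 4 higher. MMP1 and SAM3, permeases of methionine derivatives, stood at 0.88, −1.65, −2.10 and −2.14, and at 0.03, −2.30, −1.52 and −2.04. Of 23 iron uptake genes 4 were lower, with FTR1, the iron permease, at 0.27, −1.68, −1.10 and −2.56, and 4 higher. Hexose transport and its regulators had 2 of 19 higher and 2 lower, and MIG1, the glucose repressor, stood at 0.45, −1.67, −1.44 and −0.73. Of 44 amino acid synthesis genes 4 were higher and 3 lower.

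Mating genes had 4 of 28 higher and 0 lower, with BAR1, a secreted protease that cleaves alpha factor, at 0.58, 1.77, 3.21 and 3.48. FAR1, the cyclin-dependent kinase inhibitor of the pheromone response, crossed the median at the last time, at −0.75, −1.11, −1.64 and 2.23. Cyclins and their partners had 2 of 18 higher and 4 lower. Proteasome genes had 3 of 33 higher and 0 lower, with a median between −0.13 and 0.40. Respiratory genes had 7 of 40 higher and 3 lower, and peroxisomal genes 3 of 27 higher and 2 lower.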

How the data were processed

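The authors deposited one table of log2 ratios, Cy5 over Cy3, for 6268 features on 9 arrays. The log2 scale was read from the values, which lie on a grid of 0.001 when taken as log2, and the direction from YPK1 and YPK2 on the WT array; the authors' normalization, scanner and array design are not given in the sources used here, and no intensities were used, so background and dye bias were not checked. The number of arrays, 1 per condition, limits the precision.

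Each array was centred on its median, and the 6220 features with values on all 8 time course arrays were kept (48 left out). Systematic names were matched to R64 symbols for 5811 of the 6268 features. Course classes used a threshold of 1, a margin of 0.5 and 1 array per time. Tests were limma 3.58.1 fits in R 4.3.3 on all 6220 features, with Benjamini-Hochberg adjusted p and a threshold of 0.05: the mean of 15, 30 and 60 min against 0 for each kinase (4 residual degrees of freedom), a line over those times (2), a line over all times (4), and the difference of the kinases. The 3 later times of a course stand in for repeats, and whether they came from one culture is not stated, so p-values measure the spread between times. The fits were tested on simulated data.

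The classes, lists, tests and alternatives were chosen with earlier results of these data known. The rule for named genes took, for each direction, the 8 early and lasting genes with the largest smallest ratio, the 6 late or transient genes with the largest difference between 15 and 60 min, the 3 largest at 30 min alone, the 5 with the smallest p of the late line, up to 6 members of a list with the largest ratio and members whose role the text needs, 2 genes on each side of a threshold, and YPK1 and YPK2. The 29 lists held 944 distinct features and share members. Promoter motifs were not analysed here. Alternatives were centring, scaling, quantile normalization, left-out times, arrays in the fit, array weights, features kept, time scale, baseline, class thresholds and, added after seeing the data, leaving out the left arm of chromosome I and pairing the series by time.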

Additional observations from a re-analysis of the deposited data

Results flagged for a closer look

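In 4 genes flagged for a difference between the series, every later Ypk1 ratio was above the array median and every later Ypk2 ratio below it. The share of all features with this pattern is not given, so the pattern is not shown to be rare. It can be met by a small margin, as by CBF1 with 0.02 at 30 min of the Ypk1 series and −0.04 at 15 min of the Ypk2 series. The mean of the Ypk1 series minus that of the Ypk2 series was 1.877 for KAR2 (1.10 against −0.78; limma adjusted p of the difference 0.404), 1.77 for SET2 (1.17 against −0.60; adjusted p = 0.476), 1.641 for RPS0B (1.10 against −0.54; adjusted p = 0.445) and 1.432 for CBF1 (1.27 against −0.16; adjusted p = 0.613). None of the differences passed. SET2 and CBF1 owe their mean to 1 array each, 2.87 at 30 min and 3.69 at 60 min. KAR2 stood at 0.70, 0.70 and 1.90 in the Ypk1 series and at −0.67, −0.93 and −0.75 in the Ypk2 series. That the series do not overlap in these 4 genes follows from how they were chosen. RPS0B, a ribosomal protein gene with a near-identical paralog, stood at 2.30, 0.40 and 0.60 against −1.29, −0.19 and −0.14.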

How the results depend on the processing

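With 1 array per condition, values have no replicate error, and leaving out 1 time is the only check of a single array. No paired analysis was possible because each condition had 1 array, so that replicate numbers pair nothing. With the series paired by time instead, an alternative chosen after seeing the data, the difference of the series was passed by 0 genes (580 at an unadjusted p under 0.05). Without centring the 15 min medians of the pathway, autophagy and core histone lists changed sign, and that of the core histones also did with 0 min subtracted (−0.71). The higher share of transient genes was 39.5%, but 65.7% at a threshold of 1.5, 55.6% with scaled arrays, 61.8% after quantile normalization and 7.89% without centring; that of early and lasting genes was 50.8%, but 61.2% at the threshold of 1.5, 61.7% after quantile normalization and 17.6% without centring. For late genes it was 58.2%, but 70.9% at the threshold of 1.5, 72.5% without centring and 47.3% with 0 min subtracted. The mean ratio (1335 features) was passed by 725 to 1071 when a later time was left out and by 645 with the Ypk1 arrays alone. With 0 min subtracted it was passed by 3, of which 0 were among the 1335. Without centring the share of higher calls was 22.5% in place of 51.0%. The late line (0) was passed by 0 to 43 when a time was left out, and the line over all times (1) by 0 to 7. That line was passed by 0 without centring, with scaled arrays, with quantile normalization and on the other time scale, and by 13 with the Ypk1 arrays alone. The difference of the series (0) was passed by 8 with array weights, whose estimation did not converge fully. Class counts for early and lasting (305), late (404) and transient (463) genes were 80, 175 and 204 at a threshold of 1.5, 126, 232 and 133 with scaled arrays, and 141, 242 and 178 with quantile normalization. Early and lasting genes numbered 473 at a threshold of 0.8. Without a margin, late genes numbered 679 and transient genes 835, and without centring transient genes numbered 836. All 3 classes together (1172) came to 459 at the threshold of 1.5, 1819 without a margin, 491 scaled and 561 after quantile normalization. The share that passed in the Ypk2 series was 65.6% to 75.9% for early and lasting genes and 1.35% to 8.47% for transient genes under scaling or quantile normalization. With 0 min subtracted it was 55.4% for early and lasting higher and 41.4% for lower genes. Without a margin it was 12.1% for transient higher and 6.63% for transient lower genes. The spread pooled over both series works against transient genes under each of these settings, and can favour early and lasting genes with an even Ypk1 course.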

Other observations

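Features of the left arm of chromosome I, recognised by their systematic names (69 features), were 2-fold apart unusually often at 0 min of the Ypk1 series. There 22 of them (31.9%) were 2-fold apart, 7 higher and 15 lower, against 5.66% of the other features, the highest share of 32 chromosome arms. The same arm ranked first on the Ypk1 30 min array (30.4%), the Ypk2 15 min (21.7%) and 60 min arrays (27.5%) and the WT array (18.8%), but 26th of 32 on the Ypk1 15 min array (20.3%) and with 0 of 69 features on the Ypk2 0 min array. Without these features the early and lasting, late and transient classes held 303, 403 and 460 genes.

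Features that stood out on 1 later array alone, with the other arrays of the course within 0.5 of the median, were mostly higher ones on some arrays only. Past 4-fold, there were 14 at 15 min of the Ypk1 series (13 higher), 6 at 30 min (2 higher) and 12 at 60 min (11 higher). At the same time in the Ypk2 series, 0, 2 and 1 of them were 2-fold apart in the same direction. The Ypk2 series had 26 such features at 15 min, all higher, of which 6 were 2-fold higher at 15 min of the Ypk1 series. It had 2 at 30 min (1 higher) and 12 at 60 min (6 higher).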
